A study of Mus musculus with 18 samples.

Results

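Myh6, Mybpc3, Ttn, Myom1 and Myom2 encode parts of the thick filament of heart muscle and of the structures that hold it in place. These 5 genes were taken by name from the 19912 genes measured, and each was represented by its only probe set naming 1 gene. They were chosen with earlier results of these data known, so their counts beside the shares of all genes are a description. They were followed across neonatal mouse cardiac fibroblasts, neonatal cardiomyocytes, GFP+ induced cardiomyocyte-like cells (iCMs) at 2 and 4 weeks, and GFP- cells at 2 and 4 weeks in which reprogramming failed. All cells came from the outbred mouse strain CD1, with 3 arrays in each of the 6 groups and 18 arrays in all. The design compared the step-wise expression of iCMs with that of fibroblasts and cardiomyocytes on Affymetrix Gene 1.0 ST arrays. The labels name neither the reprogramming factors, nor the promoter that drives GFP, nor the age of the animals beyond neonatal, nor a batch. As far as the published study is known, GFP was driven by the Myh6 promoter, so Myh6 values across the GFP gate are a description of the sort and not an independent result. The labels do not say that replicates came from separate cultures, and the p-values below then reflect only variation among arrays, possibly technical.

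In striated muscle, myosin heavy chains assemble into the thick filament and pull on actin. Myosin-binding protein C, the product of Mybpc3 in heart, binds along the filament and tunes how myosin heads engage. Titin, the product of Ttn, is a very long elastic protein that runs from the Z-disc to the M-band and centres the thick filament. The myomesins, the products of Myom1 and Myom2, cross-link thick filaments and titin at the M-band in the middle of the sarcomere. Myh6 encodes alpha-myosin heavy chain, the fast form that dominates in the adult mouse ventricle and in the atria, and its neighbour Myh7 encodes the slow beta form. In the mouse assembly GRCm38.p6, Myh6 lies at chr14:54941921-54968017 beside Myh7 at chr14:54970684-54994626. Ttn lies at chr2:76703980-76982557 and Mybpc3 at chr2:91118114-91136516. Myom1 lies at chr17:71003332-71126856 and Myom2 at chr8:15057653-15133420.

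Because the 5 genes differed in the same direction between the end points, the stretch just before their starts is shown. It is given for the members with an entry among the promoter sequences used, Myh6, Ttn, Mybpc3 and Myom1 (4 of 5, build GRCm38.p6). Each run is the 250 bases before the start given with its promoter sequence, printed 5′ to 3′ along the gene's strand. Capitals mark a match to a motif searched. The motifs were the MEF2 box and the CArG box, both by their usual consensus, GATA sites (the letters AGATAA, the letters AGATAG, the letters TGATAA or the letters TGATAG) and the T-box site AGGTGT, each searched on both strands, so that a match on the other strand shows as its reverse complement. The windows were chr14:54966608-54966857 on the minus strand for Myh6, chr2:76982548-76982797 on the minus strand for Ttn, chr2:91117894-91118143 on the plus strand for Mybpc3 and chr17:71019307-71019556 on the plus strand for Myom1. Each of the 4 starts used here lies inside the RefSeq span of its gene.
Myh6: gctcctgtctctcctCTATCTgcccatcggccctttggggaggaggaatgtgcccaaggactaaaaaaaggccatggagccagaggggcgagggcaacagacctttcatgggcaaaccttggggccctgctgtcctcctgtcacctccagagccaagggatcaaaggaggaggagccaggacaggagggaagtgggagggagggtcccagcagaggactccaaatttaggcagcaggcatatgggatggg
Ttn: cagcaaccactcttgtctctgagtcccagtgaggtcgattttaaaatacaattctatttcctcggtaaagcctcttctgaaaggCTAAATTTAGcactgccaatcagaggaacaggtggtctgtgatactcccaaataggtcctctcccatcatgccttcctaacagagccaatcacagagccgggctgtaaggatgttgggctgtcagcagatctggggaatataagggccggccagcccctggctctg
Mybpc3: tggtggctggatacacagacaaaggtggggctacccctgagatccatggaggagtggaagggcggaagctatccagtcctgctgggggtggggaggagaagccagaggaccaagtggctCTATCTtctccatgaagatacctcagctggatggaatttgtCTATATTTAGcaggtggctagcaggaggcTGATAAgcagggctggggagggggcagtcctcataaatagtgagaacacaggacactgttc
Myom1: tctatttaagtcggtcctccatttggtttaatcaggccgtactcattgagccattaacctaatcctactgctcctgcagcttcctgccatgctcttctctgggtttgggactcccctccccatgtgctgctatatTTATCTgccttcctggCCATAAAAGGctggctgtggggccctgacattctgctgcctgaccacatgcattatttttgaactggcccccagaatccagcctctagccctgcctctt
A MEF2 box was found before Ttn, 166 to 157 bases upstream of the start, and before Mybpc3, 90 to 81 bases upstream. A CArG box, the site of serum response factor, was found before Myom1, 99 to 90 bases upstream. GATA sites were found before Myh6 (235 to 230 bases upstream), Myom1 (115 to 110 bases upstream) and Mybpc3 (131 to 126 and 61 to 56 bases upstream). No AGGTGT was found in these windows. Among 32851 mouse promoters in the same table, 2.92% held a MEF2 box, 1.47% a CArG box, 26.5% a GATA site and 11.8% the T-box site. These are matches of letters, and none was measured as a bound site.

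Array medians over all probe sets ran from 7.32 to 7.44 on the log2 scale, and arrays of the same group correlated at 0.990 to 0.996 across genes. The averages of the cardiomyocyte markers (Actc1, Tnnt2, Tnni3, Actn2, Ryr2, Pln and Nppa) separated the labelled groups. They ran from 13.09 to 13.16 in cardiomyocytes, 11.85 to 11.96 in GFP+ cells at 4 weeks, 11.26 to 11.54 at 2 weeks, 8.39 to 8.76 in GFP- cells and 7.61 to 7.72 in fibroblasts. Fibroblast markers averaged 10.44 to 10.80 in the fibroblast arrays and 9.42 to 9.70 in cardiomyocytes. Their average was 9.27 to 9.52 in GFP+ cells at 2 weeks and 8.73 to 8.78 at 4 weeks, the latter below all cardiomyocyte arrays. It was 8.80 to 9.21 in GFP- cells at 2 weeks and 8.76 to 9.04 at 4 weeks. Macrophage and leukocyte markers averaged 11.85 to 12.05 in the fibroblast arrays, against 6.29 to 6.50 in cardiomyocytes. The same macrophage average was 12.03 to 12.26 in GFP- cells and 9.15 to 10.12 in GFP+ cells, so each contrast with fibroblasts or GFP- cells also spans this difference. Other cell type markers moved too. Mesothelial markers were called higher in GFP+ cells than in fibroblasts for 4 of 4 genes at 2 weeks (median 2.41, 17.4% of all genes called higher). At 4 weeks 3 of 4 were (median 1.85, 14.3% of all genes). Endothelial markers were called higher than in fibroblasts for 5 of 5 genes in cardiomyocytes (median 2.49, 19.6% of all genes). In GFP- cells 4 of 5 were at 2 weeks (median 1.20, 13.8% of all genes) and at 4 weeks (median 2.89, 5.79%). The part of these cell types in the results was not tested. In bulk RNA, fewer cells of a type and less RNA per cell cannot be told apart.

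Cardiomyocytes and fibroblasts set the end points. All 5 genes were called higher in cardiomyocytes, against 19.6% of all genes (limma, Benjamini-Hochberg adjusted p under 0.05 over 19912 genes, as throughout). The median of the 5 differences was 5.22 on the log2 scale, beside 0.03 over all genes. The widest span was that of Myh6, 6.36 ± 0.21 (SE), or 82.3-fold, and the narrowest that of Mybpc3, 3.70 ± 0.11, or 13.0-fold. Ttn differed by 5.97 ± 0.16, Myom1 by 5.22 ± 0.22 and Myom2 by 4.37 ± 0.22. The fibroblast means lay between the 26.8th and the 51.3rd percentile of all genes, and no detection calls came with the values, so a fall below the fibroblast level may not be measurable and the folds may be understated. Levels of different genes come from different probes and are not ranked against each other here; only changes of each gene are.

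**Figure D1:**
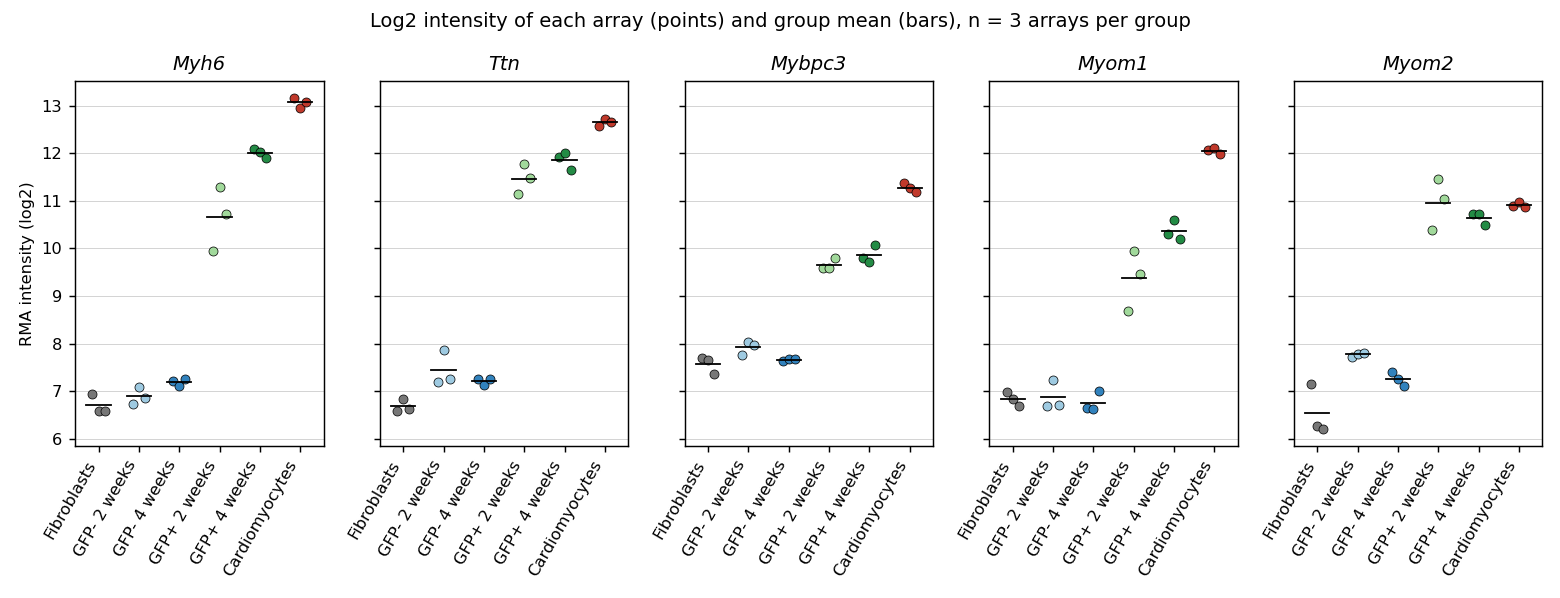
Log2 RMA intensity (y axis) of Myh6, Ttn, Mybpc3, Myom1 and Myom2 in the 6 groups (x axis), with points for arrays and bars for group means (n = 3). GFP+ cells sit above fibroblasts and GFP- cells for each gene, and for Myom2 the 2-week GFP+ arrays reach the cardiomyocyte arrays while the 4-week ones lie just below them; heights are comparable within a panel, not between panels.

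Myh6, the motor of the thick filament, measured 13.17, 12.96 and 13.08 in the 3 cardiomyocyte arrays and 6.95, 6.59 and 6.58 in the fibroblast arrays. It measured 9.93, 11.29 and 10.73 in GFP+ cells at 2 weeks and 12.09, 12.02 and 11.89 at 4 weeks. In GFP- cells it measured 6.74, 7.09 and 6.86 at 2 weeks and 7.22, 7.11 and 7.25 at 4 weeks. The order of the means was cardiomyocytes, GFP+ at 4 weeks, GFP+ at 2 weeks, then GFP- and fibroblasts, and no GFP+ array fell to the level of a GFP- or fibroblast array. GFP+ cells exceeded fibroblasts by 3.95 ± 0.21 at 2 weeks (15.4-fold, adjusted p = 1.42e-11) and by 5.29 ± 0.21 at 4 weeks (39.2-fold, adjusted p = 1.30e-13). At the lower end of the order, no difference passed the test: GFP- cells differed from fibroblasts by 0.19 (95% interval -0.25 to 0.63) at 2 weeks and by 0.49 (0.05 to 0.93, adjusted p = 0.17) at 4 weeks. The 4-week GFP- arrays nonetheless all lay above the fibroblast arrays and the 2-week GFP- arrays. Their difference from fibroblasts was called with array weights (adjusted p = 0.0155), in a fit of those groups alone (0.49, adjusted p = 0.0192) and without GFP+ 2-week replicate 1 (adjusted p = 0.0183) or replicate 2 (adjusted p = 0.0452).

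Mybpc3, which encodes the cardiac myosin-binding protein C, was the member with the narrowest range. Its 3 cardiomyocyte arrays read 11.37, 11.27 and 11.18, and its fibroblast arrays 7.69, 7.66 and 7.36. In GFP+ cells it read 9.58, 9.59 and 9.80 at 2 weeks and 9.79, 9.71 and 10.08 at 4 weeks. In GFP- cells it read 7.75, 8.02 and 7.98 at 2 weeks and 7.64, 7.68 and 7.67 at 4 weeks. GFP+ cells thus formed a middle tier whose arrays overlapped between the 2 times and reached neither end. They exceeded fibroblasts by 2.09 ± 0.11 at 2 weeks (4.25-fold, adjusted p = 1.45e-11) and by 2.29 ± 0.11 at 4 weeks (4.88-fold, adjusted p = 2.35e-12).

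Ttn, which encodes the elastic ruler of the sarcomere, read 12.57, 12.71 and 12.65 in cardiomyocytes and 6.58, 6.83 and 6.63 in fibroblasts. In GFP+ cells it read 11.14, 11.76 and 11.48 at 2 weeks and 11.91, 12.01 and 11.64 at 4 weeks. In GFP- cells it read 7.19, 7.86 and 7.26 at 2 weeks and 7.25, 7.13 and 7.25 at 4 weeks. All GFP- arrays lay above all fibroblast arrays, GFP+ arrays of the 2 times overlapped, and all of them lay below the cardiomyocyte arrays. The gap between GFP+ cells and fibroblasts was 4.78 ± 0.16 at 2 weeks (27.5-fold, adjusted p = 1.61e-14) and 5.18 ± 0.16 at 4 weeks (36.2-fold, adjusted p = 3.61e-15).

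Myom1, which encodes the M-band protein myomesin 1, read 12.06, 12.10 and 11.98 in cardiomyocytes and 6.97, 6.83 and 6.69 in fibroblasts. In GFP+ cells it read 8.69, 9.94 and 9.46 at 2 weeks and 10.31, 10.61 and 10.21 at 4 weeks. In GFP- cells it read 6.69, 7.23 and 6.71 at 2 weeks and 6.65, 6.63 and 7.00 at 4 weeks. The GFP- and fibroblast arrays overlapped at both times, while the 4-week GFP+ arrays all lay above the 2-week ones and below cardiomyocytes. GFP+ cells exceeded fibroblasts by 2.54 ± 0.22 at 2 weeks (5.81-fold, adjusted p = 1.17e-08) and by 3.54 ± 0.22 at 4 weeks (11.7-fold, adjusted p = 7.16e-11).

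Myom2, which encodes the second myomesin, read 10.89, 10.98 and 10.87 in cardiomyocytes and 7.15, 6.27 and 6.21 in fibroblasts, where the first array stood apart. In GFP+ cells it read 10.39, 11.45 and 11.04 at 2 weeks and 10.72, 10.72 and 10.48 at 4 weeks. In GFP- cells it read 7.72, 7.78 and 7.81 at 2 weeks and 7.40, 7.25 and 7.10 at 4 weeks. The 2-week GFP+ arrays straddled the cardiomyocyte arrays, the 4-week GFP+ arrays all lay below them, and GFP- arrays at 2 weeks all lay above the fibroblast arrays. GFP+ cells exceeded fibroblasts by 4.42 ± 0.22 at 2 weeks (21.4-fold, adjusted p = 4.07e-12) and by 4.10 ± 0.22 at 4 weeks (17.1-fold, adjusted p = 8.09e-12).

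Against fibroblasts, all 5 genes were called higher in GFP+ cells at 2 weeks, where 17.4% of all genes were, and all 5 at 4 weeks, where 14.3% were. The medians of the 5 differences were 3.95 and 4.10, beside 0.03 and 0.02 over all genes. The 2-week median was the value of Myh6 itself. Against GFP- cells of the same time, all 5 were also called higher, with 16.2% of all genes called higher at 2 weeks and 17.2% at 4 weeks. Each of these counts includes Myh6, whose values across the GFP gate only describe the sort. The 4 genes other than Myh6 exceeded GFP- cells at 2 weeks by 4.02 ± 0.16 for Ttn, 3.19 ± 0.22 for Myom2, 2.49 ± 0.22 for Myom1 and 1.74 ± 0.11 for Mybpc3. At 4 weeks these gaps were 4.65 for Ttn, 3.61 for Myom1, 3.39 for Myom2 and 2.20 for Mybpc3, with the same standard errors. Each comparison shares arrays with others: both GFP+ times share the fibroblast arrays, and the comparisons are set side by side rather than counted as separate support.

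The GFP- cells were not at the fibroblast level for every gene. At 2 weeks, 3 of the 5 were called higher than in fibroblasts, against 13.8% of all genes: Myom2 by 1.23 ± 0.22 (2.35-fold, adjusted p = 0.000313), Ttn by 0.76 ± 0.16 (1.69-fold, adjusted p = 0.00144) and Mybpc3 by 0.35 ± 0.11 (1.27-fold, adjusted p = 0.0294). At 4 weeks, 2 of the 5 were called higher, against 5.79% of all genes: Myom2 by 0.71 ± 0.22 (adjusted p = 0.0381) and Ttn by 0.53 ± 0.16 (adjusted p = 0.0336). Myom1 was not called at either time, at 0.05 (95% interval -0.40 to 0.50) and -0.07 (-0.52 to 0.38). Cardiomyocyte markers stood higher in GFP- cells than in fibroblasts as well, 8.39 to 8.76 against 7.61 to 7.72, and their part in these differences was not tested. The second 2-week GFP- array was the highest of its group for each gene but Myom2. Its gene values were also more spread (interquartile range 2.59, against 2.40 and 2.31). Without it the 2-week Ttn difference was 0.55 and still called (limma, adjusted p = 0.0088). The Mybpc3 call was lost without fibroblast replicate 3 (0.24, adjusted p = 0.171), without GFP- 2-week replicate 2 (adjusted p = 0.0999), without GFP- 2-week replicate 3 (adjusted p = 0.0944), with array weights (adjusted p = 0.0788) and in a fit of those groups alone (adjusted p = 0.0627). The 4-week count fell to 0 without fibroblast replicate 3, GFP- 4-week replicate 1 or GFP- 4-week replicate 2, and to 1 without fibroblast replicate 1, fibroblast replicate 2 or GFP- 4-week replicate 3.

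From 2 to 4 weeks, the GFP+ cells gained Myh6 and Myom1 signal. Myh6 rose by 1.35 ± 0.21 (2.54-fold, adjusted p = 0.000383) and Myom1 by 1.01 ± 0.22 (2.01-fold, adjusted p = 0.00473), so 2 of the 5 were called higher, against 4.29% of all genes. Ttn differed by 0.39 (95% interval 0.06 to 0.73, adjusted p = 0.121), Mybpc3 by 0.20 (-0.03 to 0.43) and Myom2 by -0.32 (-0.77 to 0.13), and none of these passed. The first 2-week GFP+ array was the lowest of its group for each of the 5 genes, and its gene values were also less spread (interquartile range 2.17, against 2.45 and 2.43). The first 4-week GFP+ array was also less spread (2.16, against 2.38 and 2.28) but was not the lowest of its group for any of the 5 genes. The Ttn difference ran from 0.23 to 0.54 when 1 array was left out, and was called without GFP+ 2-week replicate 2 (adjusted p = 0.0417) or GFP- 2-week replicate 2 (adjusted p = 0.0487). The Myom2 difference was -0.60 without GFP+ 2-week replicate 1 (adjusted p = 0.0613) and -0.08 without replicate 2, and the Mybpc3 difference was 0.09 without GFP+ 4-week replicate 3. Without GFP+ 2-week replicate 1, the Myh6 rise was 0.99 (adjusted p = 0.00046) and the Myom1 rise 0.67 (adjusted p = 0.0183), the latter over 1.5 times smaller. Between the same times in GFP+ cells, 6 of 8 macrophage and leukocyte markers (median -0.70) and 6 of 8 fibroblast markers (median -0.67) were called lower. Of 7 cardiomyocyte markers, 4 were called higher and 1 lower (median 0.43). Over all 19912 genes, 1442 were called lower and 855 higher. The part of these markers in the Myh6 and Myom1 rise was not tested. In GFP- cells, limma called 0 of the 5 changed between the times (2 at an unadjusted p under 0.05, Mybpc3 at -0.26 and Myom2 at -0.52), where 17.4% of all genes were called in either direction.

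**Figure D2:**
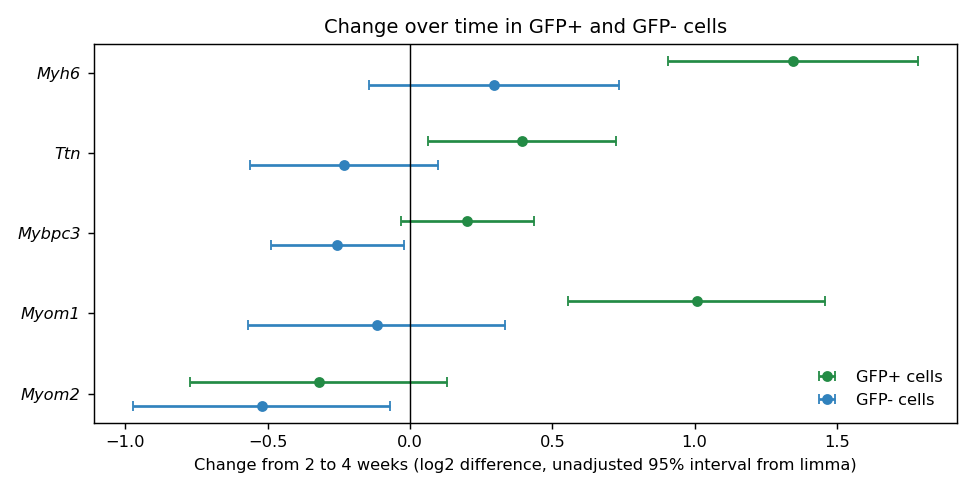
Log2 difference between 4 and 2 weeks (x axis) for each gene (y axis) in GFP+ and GFP- cells, with unadjusted 95% intervals from limma (n = 3 arrays per group). The GFP+ points of Myh6 (1.35) and Myom1 (1.01) stand clear of 0, while that of Myom2 (-0.32) lies below it with an interval that spans 0.

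The difference between these time changes in GFP+ and in GFP- cells was tested directly. It passed for Myom1, at 1.12 ± 0.31 (adjusted p = 0.0427), which made 1 of 5 against 1.86% of all genes called higher. Myh6 stood just outside the threshold, at 1.05 ± 0.30 (adjusted p = 0.0538). Ttn was at 0.63 (adjusted p = 0.145), Mybpc3 at 0.46 (adjusted p = 0.125) and Myom2 at 0.20 (adjusted p = 0.82), and 4 of the 5 had an unadjusted p under 0.05. The Myom1 value ran from 0.79 to 1.41 when 1 array was left out, with adjusted p from 0.00435 to 0.107. The Myom1 call held without fibroblast replicate 1 or 3, GFP+ 2-week replicate 2 or GFP- 4-week replicate 3, and was lost on leaving out any of the other arrays.

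Compared with cardiomyocytes, 4 of the 5 genes remained lower in GFP+ cells at both times, against 19.4% of all genes called lower at 2 weeks and 16.1% at 4 weeks. At 4 weeks, Myom1 was lower by 1.68 on the log2 scale (3.20-fold), Mybpc3 by 1.41 (2.66-fold), Myh6 by 1.07 (2.10-fold) and Ttn by 0.79 (1.73-fold), with adjusted p from 2.68e-09 for Mybpc3 to 0.000434 for Ttn. Myom2 was the exception, at 0.05 (95% interval -0.40 to 0.50) at 2 weeks and -0.27 (-0.72 to 0.18) at 4 weeks. These intervals leave room for a Myom2 level up to 0.40 below that of cardiomyocytes at 2 weeks and up to 0.72 below at 4 weeks.

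Placing each gene on a scale where the fibroblast mean is 0% and the cardiomyocyte mean 100%, on log2 values, shows how far each had moved. At 2 weeks Myom2 stood at 101% ± 12.2 (SD, n = 3), Ttn at 80.1% ± 5.20, Myh6 at 62.0% ± 10.7, Mybpc3 at 56.4% ± 3.39 and Myom1 at 48.6% ± 12.1. At 4 weeks Myom2 stood at 93.8% ± 3.13, Ttn at 86.8% ± 3.17, Myh6 at 83.2% ± 1.58, Myom1 at 67.9% ± 3.98 and Mybpc3 at 61.8% ± 5.21. Myom1 and Myh6 gained 19.3 and 21.2 percentage points, each with an exact two-sided permutation p of 0.1, the smallest that 3 against 3 arrays can give (0.25 adjusted over the 5 genes). On linear intensities the 2-week positions were 109% ± 39.6 for Myom2, 43.7% for Ttn, 27.0% for Mybpc3, 19.1% for Myh6 and 14.2% for Myom1, so Myom2 stood farther than on log2 values and the other 4 less far. The 4-week linear positions were 82.2% for Myom2, 57.4% for Ttn, 47.0% for Myh6, 32.5% for Mybpc3 and 29.6% for Myom1. The GFP- cells stood at 28.1% ± 1.02 for Myom2 at 2 weeks, their farthest position, and at 16.2% ± 3.49 at 4 weeks, and the other 4 genes lay between -1.30% and 12.7%. The end-point means were held fixed, so all these SDs leave out the spread of the end points. For Myom2 the fibroblast arrays themselves ran from -7.71% to 13.8%.

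**Figure D3:**
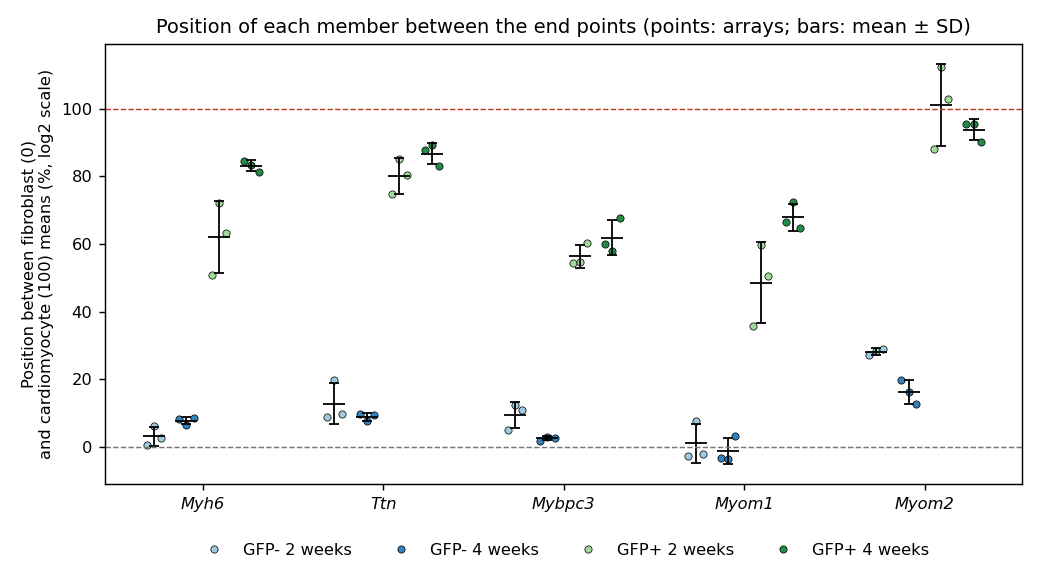
Position of each array (points) between the fibroblast mean (0%, dashed) and the cardiomyocyte mean (100%, dashed) on the log2 scale for the 5 genes, with bars for mean ± SD (n = 3). At 4 weeks GFP+ cells ranged from 61.8% for Mybpc3 to 93.8% for Myom2, and GFP- cells ranged from -1.30% for Myom1 at 4 weeks to 12.7% for Ttn and 28.1% for Myom2 at 2 weeks.

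The changes of the 2 M-band genes were set against each other within arrays, a comparison that 3 arrays a group cannot take past the threshold. The change of Myom1 minus that of Myom2 was -1.88 ± 0.24 (SE) from fibroblasts to 2-week GFP+ cells, 1.33 ± 0.10 from 2 to 4 weeks and -1.41 ± 0.09 for 4-week GFP+ cells against cardiomyocytes. Each of these reached the smallest exact permutation p, 0.1 (0.143 adjusted over the 30 differences between pairs of genes computed). From 2 to 4 weeks Myh6 gained 1.67 ± 0.09 more than Myom2, 0.95 ± 0.23 more than Ttn and 0.34 ± 0.11 more than Myom1. None of these differences passed the test, and no probe's level was set against another's.

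Likeness was measured as the root mean square difference, over the 6 groups, between the group means of a gene and those of a member, each gene's own average removed, among 18586 named genes outside the 5. Among the members themselves, Myh6 and Ttn were the nearest pair (0.42) and Myh6 and Mybpc3 the farthest (1.27). The genes nearest to Myom1 were Actn2, which encodes the Z-disc protein alpha-actinin 2 (0.22), Mlf1 (0.26) and Sh3bgr (0.32). Nearest to Myom2 were Art3 (0.14), Popdc3 (0.26) and the troponin C gene Tnnc1 (0.28). Nearest to Ttn were the calsequestrin gene Casq2 (0.23), the Z-disc gene Myoz2 (0.24) and the ryanodine receptor gene Ryr2 (0.25). Myoz2 (0.40), Smpx (0.51) and Ryr2 (0.53) were nearest to Myh6, and Ctnna3 (0.09), Prkaa2 (0.20) and Myzap (0.20) to Mybpc3. These are distances on the log2 scale over 6 groups that share arrays, given as a description.

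Around these 5 genes, 49 of 51 genes listed in 9 groups by their role were measured. Among the 8 other striated muscle myosin heavy chains, 5 were called higher in cardiomyocytes than in fibroblasts (19.6% of all genes), 3 in GFP+ cells at 2 weeks (17.4%) and 4 at 4 weeks (14.3%), with none lower. Myh7, the slow cardiac chain, read 11.91, 11.79 and 11.88 in cardiomyocytes and 6.59, 6.63 and 6.64 in fibroblasts. It read 7.11, 7.18 and 7.06 in GFP+ cells at 2 weeks and 7.59, 7.64 and 7.41 at 4 weeks. All GFP+ arrays lay above the fibroblast arrays and far below the cardiomyocyte arrays. The 4-week cells exceeded fibroblasts by 0.93 ± 0.08 (adjusted p = 8.67e-09) and stood 4.32 below cardiomyocytes (19.9-fold), where Myh6 stood 1.07 below. Myh1, an adult skeletal muscle chain, exceeded fibroblasts by 1.49 ± 0.20 at 2 weeks and by 0.87 ± 0.20 at 4 weeks. Its GFP+ arrays at both times all lay above its cardiomyocyte arrays of 6.44, 6.49 and 6.43. Heavy chains are close in sequence, and the probe sequences were not used here, so whether RNA of 1 chain was read by the probes of another was not tested.

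**Figure D4:**
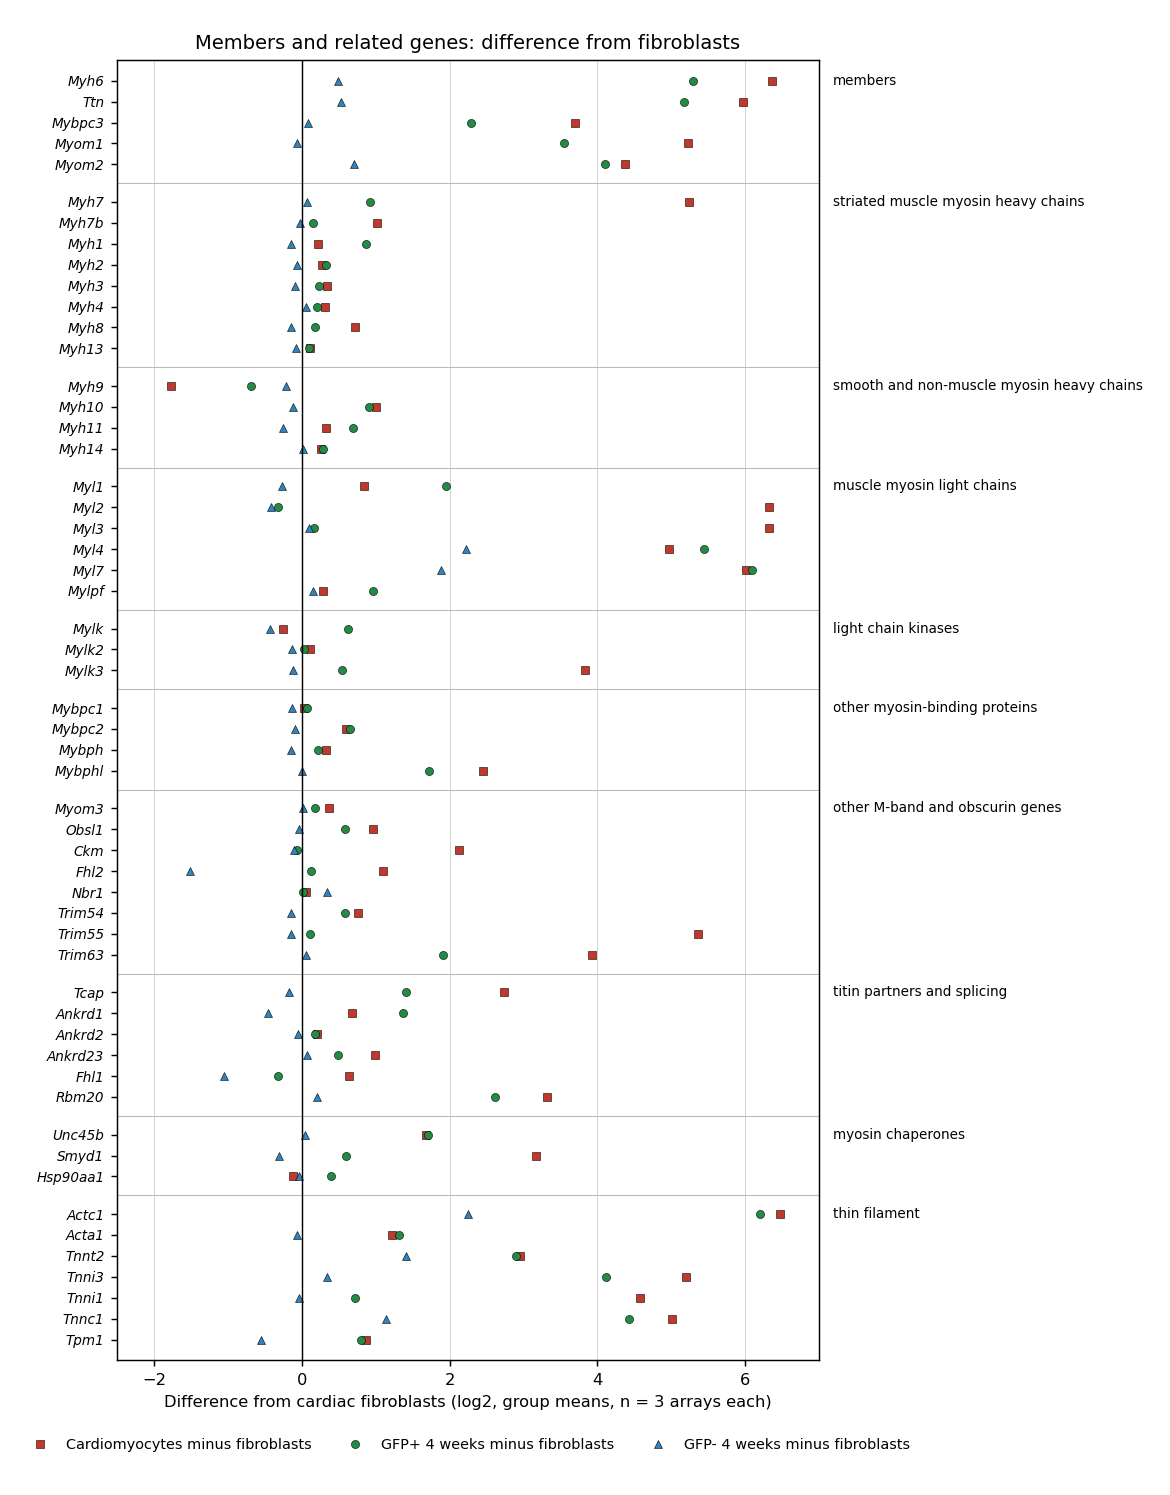
Log2 difference from fibroblasts (x axis, group means, n = 3 arrays each) of the 5 genes and 49 related genes (y axis, grouped by role) in cardiomyocytes, GFP+ and GFP- cells at 4 weeks. GFP+ and cardiomyocyte marks lie together for Myl4, Myl7 and Unc45b and far apart for Myh7, Myl2, Myl3, Mylk3 and Trim55.

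The light chains, which clasp the neck of the myosin head, split in the same cells. All 6 were called higher in cardiomyocytes than in fibroblasts (19.6% of all genes). In 4-week GFP+ cells 4 were called higher (14.3%) and 1 lower (15.2%). Myl7, the atrial regulatory chain, read 12.84, 13.02 and 12.98 in cardiomyocytes, 12.98, 13.09 and 13.00 in 4-week GFP+ cells and 7.05, 6.95 and 6.80 in fibroblasts, so GFP+ and cardiomyocyte arrays overlapped. Myl4, the atrial essential chain, exceeded fibroblasts by 5.45 ± 0.25 in 4-week GFP+ cells, beside 4.97 ± 0.25 in cardiomyocytes. Myl2, the ventricular regulatory chain, read 13.68, 13.72 and 13.70 in cardiomyocytes and 7.04, 7.03 and 7.09 in 4-week GFP+ cells, below its fibroblast values of 7.47, 7.36 and 7.30. Myl3, the ventricular essential chain, differed from fibroblasts by 0.17 ± 0.10 (adjusted p = 0.253) and stood 6.16 below cardiomyocytes (71.5-fold). Myl4 and Myl7 were also called higher in GFP- cells than in fibroblasts, by 2.70 and 1.75 at 2 weeks and by 2.22 and 1.88 at 4 weeks. Myl2 read 7.04, 6.91 and 6.95 in 4-week GFP- cells, so these arrays too lay below its fibroblast arrays and the position was not particular to GFP+ cells. At 4 weeks the GFP+ arrays of Myl1 (8.41, 8.53 and 8.12) all lay above its cardiomyocyte arrays (6.80, 7.65 and 7.29). The same held for Mylpf (7.52, 7.57 and 7.84, against 7.07, 6.91 and 6.91). Myl1 rose from 2 to 4 weeks in GFP+ cells by 1.54 ± 0.20 (adjusted p = 5.83e-05). It was the only light chain called between those times; Myl7 differed by 0.41 ± 0.16 (adjusted p = 0.114) and Myl2 by 0.23 ± 0.08 (adjusted p = 0.0792), and whether the changes of these chains differ was not tested.

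Of the 3 light chain kinases, 1 was called higher and 1 lower in cardiomyocytes, beside 19.6% and 21.5% of all genes. Mylk3, which phosphorylates the cardiac regulatory light chain, exceeded fibroblasts by 3.83 ± 0.10 in cardiomyocytes but by 0.54 ± 0.10 (adjusted p = 0.000225) in 4-week GFP+ cells, 9.80-fold below cardiomyocytes. Of the 4 other myosin-binding proteins, 3 were called higher in cardiomyocytes (19.6% of all genes) and 2 in GFP+ cells at 2 weeks (17.4%) and at 4 weeks (14.3%), with Mybphl at 2.45 ± 0.11 in cardiomyocytes and 1.72 ± 0.11 in 4-week GFP+ cells. Of the 4 smooth muscle and non-muscle heavy chains, 3 were called higher in GFP+ cells at each time (17.4% and 14.3% of all genes). Myh9, a non-muscle chain, was lower than in fibroblasts by 1.77 on the log2 scale in cardiomyocytes and by 0.69 in 4-week GFP+ cells. The myosin chaperone gene Unc45b exceeded fibroblasts by 1.70 ± 0.09 in 4-week GFP+ cells and 1.68 ± 0.09 in cardiomyocytes, whereas the methyltransferase gene Smyd1 did so by 0.60 ± 0.11 and 3.17 ± 0.11.

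Among the 8 other M-band and obscurin genes measured, 7 were called higher in cardiomyocytes than in fibroblasts (19.6% of all genes) and 3 in 4-week GFP+ cells (14.3%), where 5 were called lower than in cardiomyocytes (16.1%). Trim55 and Trim63 encode muscle RING-finger proteins that bind titin at the M-band. Trim55 read 11.49, 11.72 and 11.49 in cardiomyocytes, 6.50, 6.07 and 6.42 in 4-week GFP+ cells and 6.29, 6.36 and 5.98 in fibroblasts. Its 4-week GFP+ arrays overlapped the fibroblast arrays (0.12 ± 0.12, adjusted p = 0.57), 37.8-fold below cardiomyocytes. Trim63 exceeded fibroblasts by 1.91 ± 0.12 (adjusted p = 1.67e-10), beside 3.93 ± 0.12 in cardiomyocytes. Myom3, the third myomesin gene, was called higher in cardiomyocytes at 0.37 ± 0.09 and was at 0.18 ± 0.09 (adjusted p = 0.188) in 4-week GFP+ cells. Muscle creatine kinase, Ckm, was at 2.12 ± 0.09 in cardiomyocytes and -0.06 ± 0.09 (adjusted p = 0.725) in 4-week GFP+ cells.

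Of 6 titin partners and splicing genes measured, 5 were called higher in cardiomyocytes than in fibroblasts (19.6% of all genes) and 4 in 4-week GFP+ cells (14.3%), and 4 were called lower in those cells than in cardiomyocytes (16.1%). Rbm20, the RNA-binding protein that controls titin splicing, read 6.54, 6.91 and 6.49 in fibroblasts, 8.51, 8.60 and 8.63 in GFP+ cells at 2 weeks, 9.17, 9.29 and 9.31 at 4 weeks and 10.03, 9.87 and 10.01 in cardiomyocytes. None of these 4 groups overlapped, and the rise from 2 to 4 weeks was 0.67 ± 0.11 (adjusted p = 0.000433). Tcap, which encodes the titin cap protein telethonin of the Z-disc, exceeded fibroblasts by 1.41 ± 0.11 in 4-week GFP+ cells and 2.74 ± 0.11 in cardiomyocytes. Of the 7 thin filament genes, all were called higher than in fibroblasts in cardiomyocytes (19.6% of all genes) and in GFP+ cells at 2 weeks (17.4%) and 4 weeks (14.3%), with a median of 2.90 at 4 weeks, and 3 were called lower than in cardiomyocytes at 4 weeks (16.1%). Isoforms of Ttn cannot be read from 1 summary value per gene.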

How the data were processed

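RNA came from a PicoPure extraction and MessageAmp II-biotin labelling, per the labels' protocols. The authors deposited RMA intensities on a log2 scale, 1 value per probe set and array, per the submitters' processing notes; which version or program was used is not given in the sources used here. RMA removes background, equalises the arrays and summarises the probes of a set, which compresses low signals. Precision is limited by having 3 arrays a group. Of 28682 probe sets, 21755 named 1 gene, 1592 several and 5335 none, by the platform annotation; the probe set with the highest mean was used for each of 19912 genes, and 1 model per gene with group as the only term was fitted to the 18 arrays with limma 3.58.1 (R 4.3.3), giving 12 comparisons adjusted by Benjamini-Hochberg over all genes. The calculation was tested on simulated data. Other tests are exact permutation tests, two-sided. The alternatives were normalization, array weights, an intensity trend, the arrays in the fit, a 2-fold minimum, low and duplicate probe sets, a replicate block and leaving out arrays; the array spread as a covariate was chosen after seeing the data. Genes named are the 5 members, genes of the role lists, and the 3 genes nearest to each member in group means, leaving out predicted and unnamed genes. The members and lists were chosen with earlier results of these data known. Promoter sequences are from RefSeq, GRCm38.p6.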

Additional observations from a re-analysis of the deposited data

Results flagged for a closer look

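For Myom1, the change from 2 to 4 weeks differed between GFP+ and GFP- cells by a test of the difference itself, at 1.12 on the log2 scale (limma, adjusted p = 0.0427). The GFP+ cells rose by 1.01 and the GFP- cells differed by -0.12. The difference between them ran from 0.79 to 1.41 when 1 array was left out. The call held without fibroblast replicate 1 or 3, GFP+ 2-week replicate 2 or GFP- 4-week replicate 3, and was lost on leaving out any of the other arrays (adjusted p up to 0.107) and in a fit of the GFP+ and GFP- groups alone (adjusted p = 0.0985).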

How the results depend on the processing

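Of 60 differences of the 5 genes, 41 were called. Over 1148 repeats of those under other settings, 1111 kept their call, 37 lost it and 0 changed sign. Of 532 repeats of the other 19, 21 gained a call and 14 changed sign. Many repeats left out an array outside the comparison, which changes the standard error but cannot change the difference or its sign. With at least a 2-fold difference required, 1 of the 5 genes was called in GFP- cells against fibroblasts at 2 weeks and 0 at 4 weeks. Over all genes, 472 and 402 were. With array spread as a covariate, 1 of the 5 was called at 4 weeks, beside 2798 over all genes. From 2 to 4 weeks in GFP+ cells, array weights called 4 of the 5 genes (Myom2 lower). Over all 19912 genes they called 5985 there, where the main fit called 2297. For the time change in GFP- cells, a fit of those groups alone called 1 of the 5, beside 2647 over all genes. For the difference between the time changes, the count was 2 with quantile normalization, cyclic loess, the intensity trend or the low genes left out. It was 3 with array weights or array spread, and 0 with only the GFP+ and GFP- groups or with all single-gene probe sets. Over all genes, that difference was called for 785 in the main fit, 4191 with array weights and 1136 with array spread. It was called for 951 with quantile normalization, 1027 with cyclic loess and 929 with the intensity trend. The number was 883 with the low genes left out, 664 with only the GFP+ and GFP- groups and 794 over all single-gene probe sets. On the linear scale the median gain in position was 13.7 points, beside 6.61 on the log2 scale. Leaving out 1 array gave counts of 2 to 3 in GFP- cells against fibroblasts at 2 weeks, 0 to 3 at 4 weeks, 2 to 3 for the time change in GFP+ cells, 0 to 1 in GFP- cells, 0 to 2 for the difference between them, and a median gain of 4.40 to 9.13 points. Where the 4-week count fell to 0 or 1, 1612 to 2045 of all genes were called. Where the count for the difference between time changes was 0 or 2, 514 to 1004 of all genes were called.

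Sign changes were all in differences that were not called. Myom1 in GFP- cells against fibroblasts at 2 weeks became -0.013 with cyclic loess, -0.075 with array weights and -0.054 with array spread, and ran from -0.13 (without GFP- replicate 2) to 0.14 when 1 array was left out. At 4 weeks it ran from -0.19 to 0.0048 (without fibroblast replicate 1), and Mybpc3 ran from -0.013 (without fibroblast replicate 3) to 0.15. The GFP- time change of Myom1 ran from -0.24 to 0.059 (without 2-week replicate 2). Myom2 in 2-week GFP+ cells against cardiomyocytes became -0.038 with quantile normalization, -0.068 with cyclic loess and -0.16 with array spread, and ran from -0.19 (without GFP+ replicate 2) to 0.33 when 1 array was left out. Its difference between time changes became -0.051 with array weights and ran from -0.083 (without 2-week GFP+ replicate 1) to 0.44. The cause of these changes was not tested.

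The labels do not say what a replicate number shares, and the arrays were not treated as paired: same-numbered arrays' deviations correlated at 0.04 on average (-0.30 to 0.45), above 0.1 in 15 of 45 pairs, against -0.02 and 21 of 90 for different numbers. That 11 of 18 arrays correlated best with their own number is a hint from the data, not the design. The fit with a replicate block changed no call of the 5 genes, with the GFP+ time change at 1.35 for Myh6 (limma, adjusted p = 0.000607) and 1.01 for Myom1 (adjusted p = 0.0029). Each gene had 1 probe set, so another probe set of the same gene could not be tried. Signal near background limits what can be said of falls below the fibroblast level.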
